A study of Mus musculus with 2 samples.

Results

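Oligodendrocyte precursor cells (OPCs) were described in single-cell RNA profiles of the mouse hippocampus, in wild-type animals and in a transgenic line that serves as a model of Alexander disease. They were picked out by a rule on unique molecular identifiers (UMIs, each standing for a captured RNA molecule). A barcode counted as an OPC when it had at least 500 detected genes, at most 15% mitochondrial UMIs, a UMI of at least 4 of the 7 markers Pdgfra, Cspg4, C1ql1, Lhfpl3, Vcan, Matn4 and Cacng4, at most 1 of the 3 commitment genes Bmp4, Enpp6 and Neu4 detected, and no more than 1 UMI each of the oligodendrocyte gene Mog and the microglial gene P2ry12. This rule found 252 OPC barcodes, 92 in the wild-type library and 160 in the transgenic library, among 15594 deposited barcodes (6861 and 8733), of which 14560 passed the gene and mitochondrial filters (6435 and 8125). The wild-type group (WT) was C57BL6/J mice aged 7 weeks. The 60TM group was mice of the same age and background that carry the GFAP-hGFAP transgene, by its name human GFAP under a GFAP promoter. Which cells express the transgene was not measured here. Each genotype was 1 library pooled from 3 mice, with no map from barcodes to animals. No difference between genotypes therefore has a replicate check, no p-value is given, and every interval below is a 95% exact interval that covers counting error only, not the spread between mice or between cells.

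OPCs are the glial progenitors that divide throughout life and give rise to myelinating oligodendrocytes. They are recognised by the platelet-derived growth factor receptor Pdgfra and the proteoglycan Cspg4 (NG2), they carry glutamate and GABA receptors and receive synaptic input, and on commitment they switch off Pdgfra and switch on Bmp4, Enpp6, Neu4 and Gpr17. In inflamed or demyelinated tissue, cells of the oligodendrocyte lineage are known to express complement component C4b, the protease inhibitor Serpina3n, interferon-stimulated genes and the antigen presentation machinery.

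The OPC barcodes of the WT library held 770957 UMIs in all and those of the 60TM library 1296698. Their depth was similar, with a median of 7212 UMIs and 3393 genes in WT and 7309 UMIs and 3385 genes in 60TM, and median mitochondrial shares of 2.43% and 2.24%. The libraries shared 20 barcode sequences, none of which was an OPC. Levels are given as CPM, the UMIs of a gene per 1000000 UMIs after summing over a group of barcodes, and folds are ratios of such CPM values.

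Some of the OPC barcodes also held RNA of another cell type. In an alternative chosen after seeing the data, a barcode was called mixed when it lacked any Olig1 or Olig2 UMI, held at least 2 UMIs of the astrocyte gap junction gene Gja1, or held several markers of microglia, mature oligodendrocytes, neurons or vascular and fibroblast cells. This took 5 WT barcodes with 12.6% of the OPC UMIs and 19 60TM barcodes with 24.2%, so the mixed share was larger in 60TM. Of the 19 in 60TM, 10 carried neuronal markers, 7 carried Gja1, 6 carried microglial markers and 5 carried vascular or fibroblast markers. A doublet caller (Scrublet) had called 8 of these 19 and none of the 5 in WT. Because the mixed barcodes moved many values, those below are given with them left out (87 WT and 141 60TM barcodes, median depths 7101 and 7073 UMIs) unless the sentence says all barcodes.

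The barcodes matched the oligodendrocyte lineage on genes that the rule had not used. The lineage transcription factor Olig1 had a UMI in 95.7% of WT and 97.5% of 60TM OPC barcodes, against 5.92% and 7.06% of microglia. It was in 30.3% and 41.1% of astrocytes and in 98.6% and 96.4% of mature oligodendrocytes. Sox10, a transcription factor of the whole oligodendrocyte lineage, was detected in 90.2% and 89.4% of OPCs and in 2.86% and 2.53% of astrocytes. Mature oligodendrocytes had Sox10 in 95.4% and 92.4% of barcodes, so both genes mark the lineage and not the OPC stage. As a description of the rule itself, all 7 markers were present in 76 of 92 WT and 122 of 160 60TM barcodes. Pdgfra was present in 97.8% and 100% of OPCs, in 42.2% and 29.9% of committed precursors, and in 0.58% and 1.15% of microglia. At the marker threshold, 6 WT and 8 60TM barcodes had exactly 4 markers, with a median of 6289 and 13723.5 UMIs, and 4 and 6 of them had Olig1 or Olig2. Just outside it, 14 WT and 35 60TM barcodes had exactly 3 markers, with medians of 17172.5 and 13747 UMIs. Olig1 or Olig2 was present in only 7 and 15 of these, and 6 and 18 had at least 2 Gja1 UMIs. A further 49 WT and 62 60TM barcodes had 4 or more markers but failed the limit on Bmp4, Enpp6 and Neu4. Within the OPCs, Neu4 alone was common, in 65 of 92 and 116 of 160 barcodes, while Bmp4 was in 0 and 5 and Enpp6 in none.

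OPCs were 1.43% (1.15 to 1.75) of the filtered WT barcodes and 1.97% (1.68 to 2.30) of the filtered 60TM barcodes, a ratio of 1.38 (1.06 to 1.80). Without the mixed barcodes the shares were 1.35% and 1.74%, and the interval of their ratio, 1.28 (0.976 to 1.70), took in 1. Committed precursors, the next stage (at least 2 of Bmp4, Enpp6 and Neu4 with an Olig1 or Olig2 UMI), were 0.995% of WT and 0.948% of 60TM barcodes. Shares of barcodes after tissue dissociation also depend on how well each cell type survives it, which was not measured here.

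The identity genes of OPCs were at like levels in both libraries. Pdgfra was at 1871 CPM in WT OPCs and 1860 CPM in 60TM OPCs, a ratio of 0.994 (0.925 to 1.07). The 26 other genes typical of OPCs that the rule did not use, among them Olig1, Sox10 and the tenascin receptor Ptprz1, were all measured (at least 20 UMIs over both groups). None was at least 1.5-fold higher in 60TM, where 7.42% of all 9550 genes were, and 1 was at least 1.5-fold lower, where 10.4% of genes were. Their median log2 ratio was -0.02, the same as that of all genes (-0.02), with log2 ratios taken after adding 5 CPM. The exception was Rprm, a cell cycle arrest gene, with a ratio of 0.659 (0.498 to 0.873). Fabp7, the brain fatty acid binding protein of immature glia, was at 1198 CPM in WT OPCs and 846 CPM in 60TM OPCs, a ratio of 0.706 (0.640 to 0.779).

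Genes were counted as higher or lower from a fold of 2, given a minimum of 50 UMIs over both groups. Across all barcodes, 81 of 7511 such genes were higher in 60TM OPCs (1.08%) and 87 were lower (1.16%). With mixed barcodes left out, 37 of 6333 were higher (0.584%) and 77 were lower (1.22%). Several of the leading genes of the first count had most of their UMIs in the mixed barcodes. The pericyte gene Vtn had 1 UMI in WT and 88 in 60TM over all barcodes, but 0 and 3 without the mixed ones. The myelin lipocalin Apod went from a ratio of 7.35 to 0.959, and the endothelial gene Ly6c1 from 6 and 70 UMIs to 3 and 3. Vtn and Ly6c1 are among the markers that define a mixed barcode, so their fall follows in part from that rule. On the other side, Ndnf and Ecrg4 had been lower in 60TM (59 and 18 UMIs, and 45 and 6 UMIs), and had 0 and 5 and 4 and 3 UMIs without the mixed barcodes. C4b, Ifit3, Ifit1 and Ttr on the high side and the genes of cell division on the low side kept their direction.

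**Figure D1:**
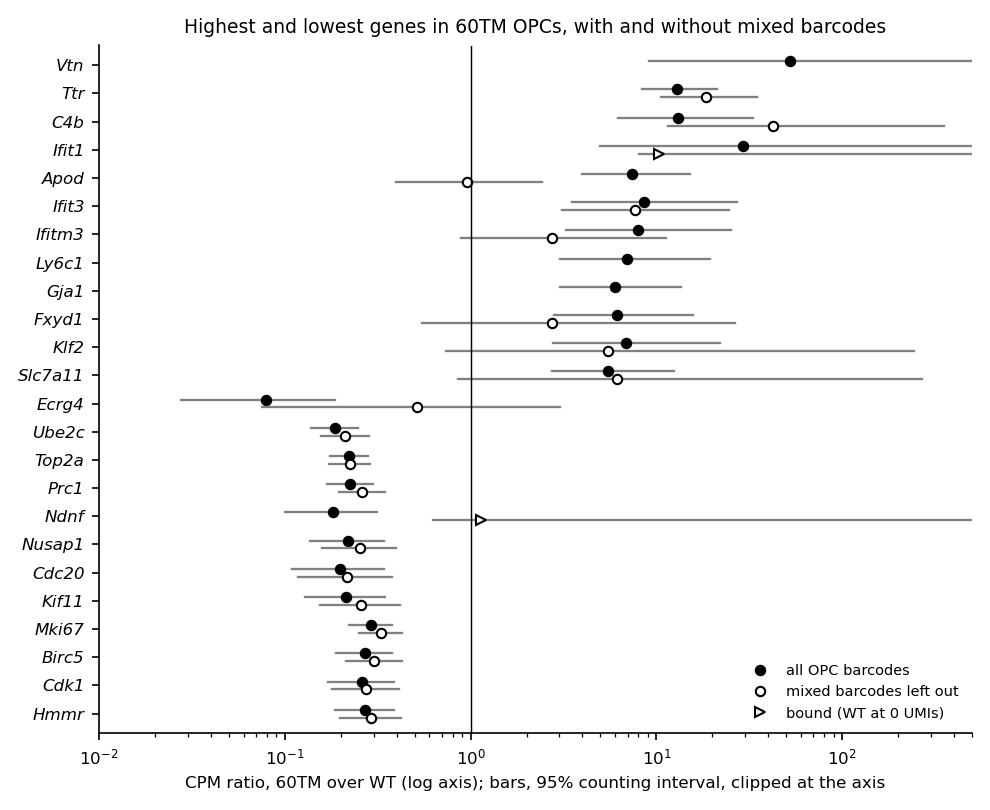
CPM ratio of 60TM over WT OPCs on a log axis for the 12 leading higher and 12 leading lower genes over all barcodes (filled circles) and with mixed barcodes left out (open circles), bars showing the 95% counting interval clipped at the axis and triangles a lower bound where WT had 0 UMIs; a gene with no open symbol had too few UMIs left for a ratio. Apod moved from 7.35 to 0.959, while C4b stayed above 10 and Top2a stayed near 0.22.

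**Figure D2:**
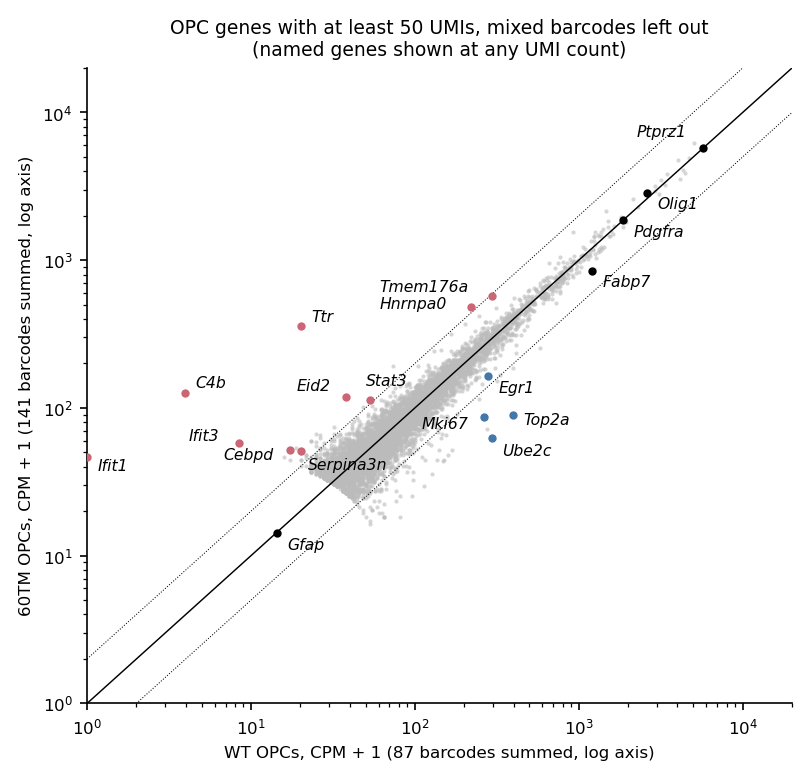
Level of each gene in WT OPCs (horizontal) and 60TM OPCs (vertical), both in CPM + 1 on log axes, for genes with at least 50 UMIs and the named genes, without mixed barcodes; the solid line marks equal levels and the dotted lines a 2-fold difference. C4b, Ifit1, Ifit3 and Ttr lie far above the line, Top2a, Ube2c and Mki67 below it, and Pdgfra, Olig1 and Ptprz1 on or close to it.

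C4b, the complement component that tags surfaces for C3, had the highest ratio among genes with at least 50 UMIs. It lies on chromosome 17 at 34728380 to 34743882 on the minus strand (GRCm38), and was named when the cells were chosen, so its values are a description. WT OPCs held 2 C4b UMIs, each in its own barcode, which is 2.97 CPM. 60TM OPCs held 124 C4b UMIs in 44 of 141 barcodes, which is 126 CPM and a ratio of 42.5 (11.5 to 355). Over all barcodes the counts were 7 and 154 UMIs, a ratio of 13.1. The share of OPCs with a C4b UMI, to be read beside that in microglia and neurons given next, was thus 2.30% (0.280 to 8.06) in WT and 31.2% (23.7 to 39.5) in 60TM. Among the 44 positive 60TM barcodes, 20 held 1 UMI, 5 held 2 and 19 held 3 or more, up to 10. The closely related gene C4a had 1 UMI in each library over all barcodes and none without the mixed ones, and the sources used here do not say how reads shared by C4a and C4b were counted.

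**Figure D3:**
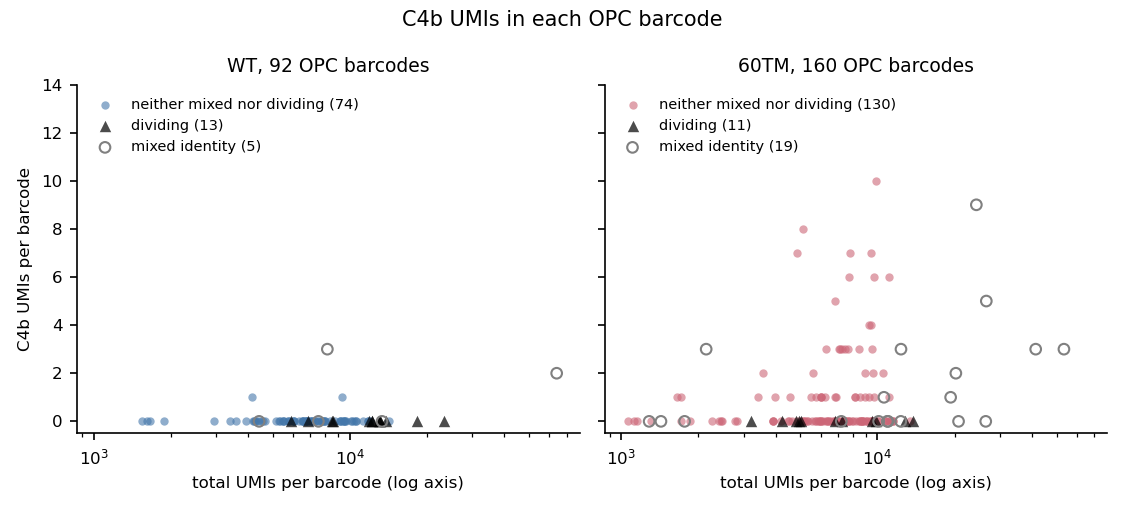
C4b UMIs in each OPC barcode (vertical) against its total UMIs (horizontal, log axis), WT left and 60TM right, with dividing barcodes as triangles and mixed barcodes as open circles. C4b-positive 60TM barcodes outside the mixed ones held 1652 to 11130 UMIs, and no dividing barcode outside the mixed ones had a C4b UMI.

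Other cell classes of the 60TM library also held C4b UMIs, so the OPC share was set beside theirs. Unthinned, 12.5% of 60TM microglia (median depth 6836 UMIs) and 16.1% of 60TM neurons (9417.5 UMIs) had a C4b UMI, against 1.71% of WT microglia (5683 UMIs) and 1.63% of WT neurons (8525 UMIs). An estimate of free RNA came from microglial, endothelial and mature oligodendrocyte markers in all OPC barcodes, mixed ones included. It was 1.30% of OPC UMIs in WT and 3.70% in 60TM. Mog and P2ry12, which the OPC rule limits, are among these markers, so the estimate is not an upper bound. The part of free RNA in the C4b shares was not tested. To compare classes at 1 depth, barcodes were thinned to 2000 UMIs and the share with a C4b UMI was averaged over all possible draws. In 60TM it was 16.5% for OPCs, 10.7% for committed precursors, 17.2% for mature oligodendrocytes, 25.6% for astrocytes, 5.57% for neurons and 4.91% for microglia. In WT it was 0.84% for OPCs, 1.36% for mature oligodendrocytes, 5.89% for astrocytes and 0.823% for microglia. OPCs of 60TM thus lay next to mature oligodendrocytes, below astrocytes and above neurons and microglia. Here and below, mixed barcodes were left out of the OPCs only, and the other classes had no such filter. The CPM ratio of 60TM over WT was above 5 in every class, with 43.2 (7.46 to 1736) in committed precursors, 19.3 (16.5 to 22.6) in mature oligodendrocytes, 5.82 (5.19 to 6.54) in astrocytes and 6.84 (5.51 to 8.58) in microglia.

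**Figure D4:**
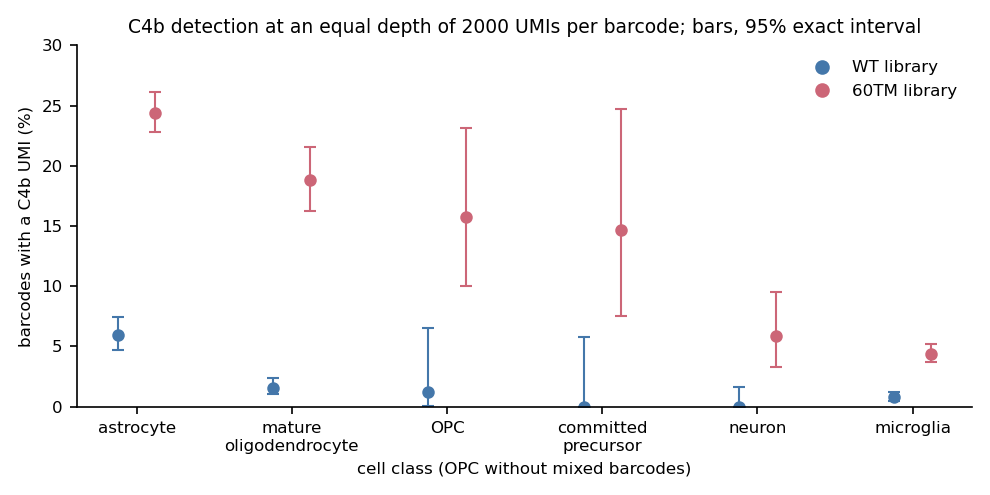
Share of barcodes with a C4b UMI (vertical, percent) in 6 cell classes of the WT (blue) and 60TM (red) libraries after 1 random draw of 2000 UMIs per barcode, bars showing the 95% exact interval. In this draw 1 of 83 WT OPCs and 21 of 133 60TM OPCs were positive (15.8%, 10.0 to 23.1), above the microglia and neurons of the same library and below its astrocytes. Mixed barcodes were left out of the OPCs but not of the other classes.

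Among other complement and acute phase genes, few were measured in OPCs. Of 20 listed genes, 6 were measured and 2 were at least 1.5-fold higher, C4b and Serpina3n (7.42% of all genes were higher). Serpina3n, a secreted inhibitor of serine proteases (chromosome 12, 104406729 to 104414329, plus strand), had 13 UMIs in 12 of 87 WT barcodes (19.3 CPM) and 49 UMIs in 28 of 141 60TM barcodes (49.8 CPM), a ratio of 2.58 (1.38 to 5.19). The share of barcodes with a Serpina3n UMI was 13.8% in WT and 19.9% in 60TM OPCs, beside 10.6% and 15% in neurons and 0.542% and 1.48% in microglia. Its ratio was larger in mature oligodendrocytes, 15 (11.2 to 20.4), and in astrocytes, 7.88 (6.19 to 10.2). It belongs to a family of close copies, so reads shared between members are uncertain. Clusterin (Clu) and ceruloplasmin (Cp), which OPCs expressed in both libraries, had ratios of 1.14 (0.972 to 1.35) and 1.24 (0.910 to 1.69). The microglial C1qa, a marker that the mixed rule uses, was at 16 and 86 UMIs over all barcodes and at 13 and 21 without the mixed ones.

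Genes of the interferon response were higher in 60TM OPCs. Of 27 listed genes 12 were measured, 9 were at least 1.5-fold higher (7.42% of all genes) and none was lower (10.4% of all genes). Their median log2 ratio was 1.08 against -0.02 for all genes. As the UMI minimum was summed over both libraries, a gene could pass on 60TM barcodes alone, as Ifit1 did. Ifit3, an antiviral RNA-binding protein (chromosome 19, 34583531 to 34588731, plus strand), had 5 UMIs in 5 WT barcodes and 56 UMIs in 24 60TM barcodes. That is 7.42 and 57 CPM, a ratio of 7.67 (3.10 to 24.5). Its neighbour Ifit1 (chromosome 19, 34640871 to 34650009, plus strand) had no UMI in WT and 45 UMIs in 18 60TM barcodes, which is at least 10.3-fold higher when the WT group is set to the floor of 3 UMIs. The near-identical Ifit3b had 3 and 40 UMIs, and reads that it shares with Ifit3 are uncertain.

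Ifi27, a mitochondrial interferon-induced protein, had the most UMIs of the list, at 165 CPM in WT OPCs and 317 CPM in 60TM OPCs, a ratio of 1.93 (1.55 to 2.41). The tetherin gene Bst2 had 1 and 23 UMIs, a ratio of 15.8 (2.56 to 649), and 12 of the 23 were in a single barcode. Stat2 and Irf9, both members of the type I interferon transcription complex, had ratios of 1.14 (0.468 to 2.96) and 1.37 (0.585 to 3.46). The list thus held a group of genes with many-fold ratios and a few near 1.

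Counted per barcode, the interferon genes were concentrated in some OPCs. The median OPC had 1 of the 27 genes detected in WT and 2 in 60TM. At least 5 were detected in 2 of 87 WT barcodes (2.30%, 0.280 to 8.06) and in 22 of 141 60TM barcodes (15.6%, 10.0 to 22.7), with at most 6 genes in any WT barcode and 15 in 60TM. None of the list was detected in 12 WT and 16 60TM barcodes. The 5 richest of the 87 WT barcodes held 20.5% of 220 interferon UMIs, and the 5 richest of the 141 60TM barcodes held 23.2% of 783. In WT these 5 are a larger fraction of the barcodes. After 1 draw of 2000 UMIs per barcode, 2.41% of WT and 8.27% of 60TM OPCs had at least 3 of the genes. Ifit3 was also higher in the other classes of the 60TM library, with ratios of 13.7 (4.45 to 68.3) in committed precursors, 7.98 (6.61 to 9.72) in microglia and 5.36 (4.55 to 6.35) in astrocytes. The unthinned share with an Ifit3 UMI was 5.75% in WT and 17.0% in 60TM OPCs, beside 2.88% and 14.3% in microglia and 1.63% and 7.66% in neurons.

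The upstream sequences of the listed genes, whether or not measured in OPCs, were searched for GAAANNGAAA, the core of the interferon-stimulated response element. The search covered both strands of the 250 bases before each RefSeq start (GRCm38.p6). The motif was in 978 of 32851 windows of that length (2.98%), in 13 of the 20 listed interferon genes found in the table (65%), and in 2 of 18 listed MHC class I presentation genes (11.1%). A search for TTCNNNGAA, the palindrome bound by STAT dimers, found it in 7.02% of all windows, in 6 of the same 20 interferon genes and in 2 of the 18 presentation genes. The shares of all windows count each window. The list shares count each gene, with a match in any of its windows enough, which can raise them against the former. They describe lists of genes chosen by known function, and not the genes that differed in OPCs. Ifit3 and Ifit1 each held 2 matches to the response element and B2m, described below, held 1. Ifit3 is shown because it was among the leading genes in both comparisons, and Ifit1 because it was among those of 60TM over WT. B2m is shown as the shared light chain of the presentation genes. Matches are in capitals (TTTC forms are the motif read on the other strand).
Ifit3, chr19:34583361-34583428, plus strand, ending 100 bases before the start: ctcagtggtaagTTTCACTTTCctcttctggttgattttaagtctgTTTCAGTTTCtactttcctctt
Ifit1, chr19:34640773-34640825, plus strand, ending 63 bases before the start: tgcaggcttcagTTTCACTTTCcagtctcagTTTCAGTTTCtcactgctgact
B2m, chr2:122147536-122147569, plus strand, ending 117 bases before the start: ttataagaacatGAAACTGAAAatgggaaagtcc
The windows of Serpina3n, Stat3, H2-D1 and Psme1 held no match to either motif in these letters. A match is a description of the sequence and not a measured binding site.

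Antigen presentation genes differed less. Of 21 listed MHC class I presentation genes, 12 were measured, with a median log2 ratio of 0.38. In 60TM OPCs 4 were at least 1.5-fold higher (7.42% of all genes) and none lower (10.4% of all genes). The class I heavy chain H2-K1 was at 40.1 CPM in WT OPCs and 77.3 CPM in 60TM OPCs, a ratio of 1.93 (1.23 to 3.11). The proteasome activator Psme1 was at 53.5 and 103 CPM, a ratio of 1.92 (1.30 to 2.90), and the loading-complex disulfide isomerase Pdia3 at 247 and 415 CPM, a ratio of 1.68 (1.40 to 2.03). The peptide transporter subunit Tap2 was the other of the 4, with 17 and 38 UMIs.

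H2-D1, a further class I heavy chain (chromosome 17, 35262730 to 35267499, plus strand), was at 180 and 240 CPM, a ratio of 1.34 (1.07 to 1.68). Beta-2 microglobulin, B2m, the light chain of every class I molecule, had a ratio of 1.18 (0.921 to 1.52) and a UMI in 55 of 87 WT and 88 of 141 60TM barcodes. Those ratios were smaller than in mature oligodendrocytes, where H2-D1 was at 3.29 (3.02 to 3.58) and B2m at 2.57 (2.38 to 2.78). Reads that class I genes share are uncertain. Of the 7 class II genes only H2-DMa reached 20 UMIs.

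Of 18 genes of the gp130 and Stat3 pathway, which relays interleukin-6 family cytokines, 10 were measured, 2 were at least 1.5-fold higher and 1 was lower. Of all genes 7.42% were higher and 10.4% were lower, so the lower count was near that share. The transcription factor Stat3 (chromosome 11, 100885098 to 100939540, minus strand) was at 52.0 CPM in WT OPCs and 112 CPM in 60TM OPCs, a ratio of 2.15 (1.46 to 3.25), with a UMI in 26 and 66 barcodes. Its target Cebpd (chromosome 16, 15887286 to 15891031, plus strand), an acute phase transcription factor, was at 16.3 and 50.9 CPM, a ratio of 3.11 (1.6 to 6.63), with a UMI in 9 and 33 barcodes. The shared receptor chain Il6st (gp130) was lower, at 63.9 and 38.7 CPM, a ratio of 0.605 (0.381 to 0.959). The receptor chains Lifr and Cntfr and the kinase Jak1 had ratios of 1.14, 1.33 and 1.39, and the feedback inhibitor Socs3 had 9 and 15 UMIs. In astrocytes the Cebpd ratio was 12.3 (11.3 to 13.4) and that of Socs3 3.73 (2.70 to 5.29), and in committed precursors the Cebpd ratio was 0.855 (0.535 to 1.37).

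Genes of cell division were lower in 60TM OPCs. All 16 listed genes were measured and all 16 were at least 1.5-fold lower (10.4% of all genes were), with a median log2 ratio of -1.63. Top2a, the topoisomerase of dividing cells, was at 395 CPM in WT OPCs and 88.5 CPM in 60TM OPCs, 4.46-fold lower. Ube2c, which drives exit from mitosis, was at 294 and 62.0 CPM, 4.74-fold lower, and the proliferation antigen Mki67 at 264 and 86.5 CPM, 3.06-fold lower. These UMIs came from few barcodes. Ube2c was detected in 9 WT and 8 60TM barcodes, and a single WT barcode held 73 of its 198 UMIs. The genes of DNA replication went the same way, with 10 of 12 measured at least 1.5-fold lower, among them Mcm2 with a ratio of 0.270 (0.130 to 0.527) and Pcna with a ratio of 0.542 (0.401 to 0.729).

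Counted as cells, dividing OPCs (at least 2 of 8 division genes detected) were 13 of 87 in WT (14.9%, 8.20 to 24.2) and 11 of 141 in 60TM (7.80%, 3.96 to 13.5). Their ratio was 0.522, and its counting interval (0.212 to 1.26) took in 1. After 1 draw of 2000 UMIs the shares were 10.8% and 6.77%. Over all barcodes, the dividing OPCs of WT were also deeper, with a median of 12558 UMIs against 7280 in 60TM. Committed precursors were classed as dividing in 4 of 64 WT and 1 of 77 60TM barcodes, and their Mki67 counts were 84 and 11 UMIs. None of the dividing OPCs had a C4b UMI, 0 of 13 in WT (which allows up to 24.7%) and 0 of 11 in 60TM (up to 28.5%), whereas 44 of the other 130 60TM OPCs did (33.8%, 25.8 to 42.7). Leaving out the dividing barcodes as well left 42 of 5693 genes at least 2-fold higher (0.738%) and 21 lower (0.369%). Without them the C4b ratio was 35.3, the Ifit3 ratio 7.97 and the Stat3 ratio 2.10.

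Genes that define how OPCs sense their surroundings differed little. Of all genes 7.42% were at least 1.5-fold higher and 10.4% lower. Of 20 measured glutamate and GABA receptor genes 1 was at least 1.5-fold higher and 1 lower, with a median log2 ratio of 0.00. The AMPA receptor subunit Gria2 was at 1320 CPM in WT OPCs and 1192 CPM in 60TM OPCs, and Gria3 at 386 and 286 CPM, a ratio of 0.740 (0.623 to 0.880). Of 24 measured ion channel genes 3 were higher and 1 lower, including the sodium channel Scn2a at 47.5 and 101 CPM, a ratio of 2.12 (1.41 to 3.26). No gene of 19 measured growth factor and Notch receptors passed 1.5-fold in either direction. Of the 23 measured genes on the matrix list 1 did, the collagen Col9a3, at 104 and 190 CPM, a ratio of 1.83 (1.38 to 2.44).

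The commitment receptor Gpr17 was at 625 and 565 CPM, a ratio of 0.903 (0.794 to 1.03). Neu4, a sialidase that the rule limits only in combination, was at 233 and 332 CPM, a ratio of 1.42 (1.17 to 1.73). Of 8 measured myelin genes 3 were at least 1.5-fold higher (7.42% of all genes were) and 1 was lower (10.4% of all genes), with a median log2 ratio of 0.40. Markers of mature oligodendrocytes moved with them, with 3 of 7 measured higher, 2 lower, a median of 0.44, and summed levels per barcode of 0 to 2594 CPM (median 350) in WT and 0 to 6479 CPM (median 489) in 60TM. Mog, which the rule itself limits, had 6 and 4 UMIs, and the part of mature oligodendrocyte RNA in these values was not tested. The myelin basic protein gene Mbp, at 42 and 193 UMIs over all barcodes, was at 38 and 84 UMIs without the mixed ones, a ratio of 1.51 (1.02 to 2.28). Cholesterol synthesis genes, 22 of 22 measured, had 1 gene higher and 1 lower and a median of 0.20. With dividing barcodes left out as well, 6 were higher (background 8.1% of genes) and none lower (background 9.3%), among them the HMG-CoA synthase gene Hmgcs1 with a ratio of 1.98.

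Lists of cell stress showed no common shift. Heat shock genes (11 measured, 1 higher and 1 lower), the integrated stress response (11 measured, 1 and 1), Nrf2 targets (16 measured, 0 and 2) and glucocorticoid-induced genes (11 measured, 2 and 2) had medians between -0.02 and 0.09 on the log2 scale. NF-kB targets went from 4 of 6 higher over all barcodes (where 7.56% of genes were higher and 9.56% lower) to 0 of 4 higher and 1 of 4 lower without the mixed ones, where 7.42% and 10.4% of genes were. The lower gene was the NF-kB subunit Nfkb1, with 32 and 29 UMIs, a ratio of 0.621 (0.362 to 1.06). Immediate early genes respond to dissociation as well as to signals in the tissue. Of 13 measured, 2 were higher (7.42% of all genes) and 2 lower (10.4%), with a median log2 ratio of -0.23. With dividing barcodes left out as well, 2 were higher (background 8.1% of genes) and 4 lower (background 9.3%). Among these genes Egr1 was lower in 60TM, at 278 and 163 CPM (0.586, 0.472 to 0.728). Dusp1 and Junb were higher, at ratios of 3.08 (1.53 to 6.86) and 2.01 (1.12 to 3.80).

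Other genes that led the comparison were not known members of these pathways. Tmem176a, a membrane protein of immune and glial cells, was at 293 CPM in WT OPCs and 572 CPM in 60TM OPCs, a ratio of 1.95 (1.66 to 2.31), and was detected in 69 of 87 and 124 of 141 barcodes. The collagen Col16a1, which is not on the matrix list, had 12 and 52 UMIs, a ratio of 2.97 (1.56 to 6.11), and the tetraspanin partner Ptgfrn had 11 and 51 UMIs, a ratio of 3.18 (1.64 to 6.76).

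The RNA-binding protein gene Hnrnpa0 and the differentiation inhibitor Eid2 had ratios of 2.19 (1.82 to 2.66) and 3.15 (2.03 to 5.07) in OPCs. The ratios were similar in the other 5 classes, 1.93 to 2.23 for Hnrnpa0 and 1.80 to 2.49 for Eid2, so a difference of this size was found in all 6 classes for Hnrnpa0. Ttr, the transthyretin of the choroid plexus, had 13 UMIs in WT OPCs and 349 UMIs in 60TM OPCs, a ratio of 18.4 (10.6 to 34.9). It was detected in 131 of 141 60TM OPC barcodes and in over 90% of 60TM barcodes in each other class, with a share of 51.7% in OPCs at 2000 UMIs and of 34.8% to 52.1% in the others. In every WT class that share was at or under 6.80%. The part of free RNA in these values was not tested.

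Gfap, the gene of which the human form is the transgene, served as a check of the labels in astrocytes, where it was 3.86-fold higher (3.72 to 4.01) in the 60TM library. The sources used here do not say whether reads of the human transgene map to the mouse gene. In OPCs it had 9 UMIs in WT and 13 in 60TM, in 4 and 8 barcodes, a ratio of 0.990 (0.391 to 2.62). Over all OPC barcodes it had 41 and 186 UMIs, most of them in mixed barcodes.

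Within the 60TM library, OPCs with and without a C4b UMI were then compared. Over all barcodes, 53 were C4b-positive and 107 were C4b-negative, and 208 of 5468 genes were at least 2-fold higher in the positive ones (3.8%) and 99 lower (1.81%). Without mixed barcodes, 44 were positive and 97 negative, and the counts were 25 of 4276 higher (0.585%) and 62 lower (1.45%). In the first comparison the leading genes included Gja1, with 88 UMIs in positive and 3 in negative barcodes, and Gfap, with 168 and 18. In the second Gfap had 2 and 11 UMIs, and Gja1, which the mixed rule limits, had 1 and 1. The positive barcodes were somewhat deeper, with a median of 7373.5 UMIs against 6869, which by itself raises the chance of seeing a C4b UMI. These cells come from the same animals and the same library and are not replicates, and C4b itself is left out of the totals.

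The OPC genes were at like levels in C4b-positive and C4b-negative OPCs. Of the 26 OPC genes outside the rule none was 1.5-fold higher or lower, where 9.9% of 7810 genes were higher and 11.7% were lower, and Pdgfra had a ratio of 1.14 (1.04 to 1.26). Astrocyte markers, summed over 12 genes, had a median of 2681 CPM per positive barcode (796 to 4888) and of 2119 CPM per negative barcode (207 to 13276), and the ranges overlapped. Over the summed barcodes they were at 2666 and 2113 CPM, with 1 of 6 measured genes at least 1.5-fold higher, none lower and a median log2 ratio of 0.27. Aqp4 and Aldh1l1 had 3 and 0 UMIs in the positive barcodes and 9 and 2 in the negative ones, while Gja1 had been limited by the removal of mixed barcodes. The part of astrocyte RNA in the result was not tested. Microglial marker sums had medians of 104 and 110 CPM, and those of mature oligodendrocytes 511 and 486 CPM. Endothelial, mural and macrophage marker sums had medians of 0 in both groups. The mixed rule limits microglial, mature oligodendrocyte, neuronal, endothelial and mural markers, and the OPC rule limits Mog and P2ry12. Low sums of these classes in both groups thus follow in part from the selection. Neuronal marker sums had medians of 986 and 781 CPM, with 2 of 6 measured neuronal genes higher, and their part in the result was not tested.

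Interferon genes were higher in C4b-positive OPCs. Of 9 measured genes 7 were at least 1.5-fold higher (9.9% of all genes) and none lower (11.7% of all genes). Their median log2 ratio was 1.75 against 0.00 for all genes. The UMI minimum for a measured gene was summed over both groups. A gene could thus pass on its UMIs in the positive barcodes alone, as Ifit1 did. The shares of all genes used the same minimum. The count and the median describe the measured genes only, as the other listed genes had too few UMIs. Ifit3 had 46 UMIs in 15 of 44 positive barcodes (144 CPM) and 10 UMIs in 9 of 97 negative barcodes (15 CPM), a ratio of 9.60 (4.78 to 21.3). A single positive barcode held 13 of the 46. Ifit1 had 40 UMIs in 13 positive and 5 UMIs in 5 negative barcodes, a ratio of 16.7 (6.59 to 54.2). Ifi27 and Ifit2 did not pass 1.5-fold, with ratios of 1.27 (1.0 to 1.6) and 0.712 (0.359 to 1.33). The count over all 9 measured genes thus held a strong Ifit1, Ifit3, Ifit3b, Bst2 and Rtp4 part and a weaker remainder.

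At least 5 of the 27 interferon genes were detected in 12 of 44 positive barcodes (27.3%, 15 to 42.8) and in 10 of 97 negative ones (10.3%, 5.06 to 18.1). The 5 richest of the 44 positive barcodes held 44.7% of the 407 interferon UMIs of their group. The 5 richest of the 97 negative barcodes, a smaller fraction of their group, held 16.2% of 376. At 2000 UMIs per barcode, averaged over all draws, Ifit3 was detected in 17.9% of positive and 2.91% of negative barcodes.

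Serpina3n tracked C4b within the OPCs. It had 38 UMIs in 18 of 44 positive barcodes (119 CPM) and 11 UMIs in 10 of 97 negative ones (16.6 CPM), a ratio of 7.21 (3.61 to 15.6). At 2000 UMIs per barcode it was detected in 19.7% of positive and 2.50% of negative barcodes. The negative barcodes of 60TM were thus close to the WT OPCs, at 19.3 CPM. Clu was at 587 and 324 CPM, a ratio of 1.81 (1.48 to 2.22).

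Stat3 and Cebpd were also higher with C4b. Stat3 had a UMI in 28 of 44 positive and 38 of 97 negative barcodes, at 179 and 79.8 CPM, a ratio of 2.24 (1.52 to 3.33). Cebpd had a UMI in 18 and 15 barcodes, at 107 and 24.1 CPM, a ratio of 4.43 (2.38 to 8.60). Of the 8 measured genes of the pathway list, Lifr was the only other to pass 1.5-fold, with a ratio of 1.61 (1.02 to 2.52), and the list's median was 0.09. Of all genes, 9.9% were at least 1.5-fold higher.

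Of 10 measured MHC class I presentation genes 6 were at least 1.5-fold higher in C4b-positive OPCs (9.9% of all genes) and none lower (11.7%). Their median log2 ratio was 0.66. H2-D1 was at 355 CPM in positive and 185 CPM in negative barcodes, a ratio of 1.92 (1.47 to 2.49), and had a UMI in 35 of 44 and 58 of 97. A single positive barcode held 30 of its 113 H2-D1 UMIs. B2m was at 273 and 138 CPM, a ratio of 1.97 (1.45 to 2.67), but was detected in nearly equal shares of barcodes, 29 of 44 and 59 of 97.

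Further genes that led the C4b-positive side were the potassium channel Kcna1, the collagen Col16a1, the G protein subunit Gng11, the secreted Tafa1 and the sodium pump subunit Atp1b2. Kcna1 had a UMI in 29 of 44 positive and 23 of 97 negative barcodes, at 176 and 49.7 CPM, a ratio of 3.54 (2.26 to 5.62). Col16a1 had a UMI in 19 and 13 barcodes, a ratio of 3.94 (2.16 to 7.41). Tmem176a was at 832 and 447 CPM, a ratio of 1.86 (1.57 to 2.20), and the tetraspanin Cd9 at 2424 and 1576 CPM, a ratio of 1.54 (1.40 to 1.69).

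Division genes were lower in C4b-positive OPCs. Cenpf, Top2a and Mki67 had no UMI in the 44 positive barcodes and 148, 87 and 85 UMIs in the negative ones, as follows from the absence of C4b UMIs in dividing barcodes. All 13 measured division genes were at least 1.5-fold lower, where 11.7% of all genes were. With dividing barcodes left out too, 23 of 3961 genes were at least 2-fold higher (0.581%) and 28 lower (0.707%), and none of 6 measured replication genes passed 1.5-fold.

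Cholesterol synthesis genes were lower in C4b-positive OPCs. All 22 were measured, 11 were at least 1.5-fold lower (11.7% of all genes) and none was higher (9.9% of all genes). Their median log2 ratio was -0.53. Without dividing barcodes 12 were lower (background 10.6% of genes) and none was higher (background 9.51%), with a median of -0.55. Hmgcs1, the enzyme ahead of the rate-limiting step, was at 126 CPM in positive and 244 CPM in negative barcodes, a ratio of 0.515 (0.355 to 0.732), with a UMI in 26 of 44 and 57 of 97. Idi1, the isoprene isomerase, was at 53.4 and 119 CPM, a ratio of 0.449 (0.249 to 0.765), with a UMI in 13 and 45 barcodes. Insig1, a sterol-regulated inhibitor of the pathway, had 11 and 51 UMIs, a ratio of 0.450 (0.211 to 0.874). Not every enzyme differed, as Dhcr7, which makes cholesterol from its last precursor, had 14 and 23 UMIs, a ratio of 1.27 (0.604 to 2.58). Outside this list, Arhgap5 and Tmx1 were lower, with ratios of 0.337 (0.161 to 0.643) and 0.377 (0.191 to 0.686).

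**Figure D5:**
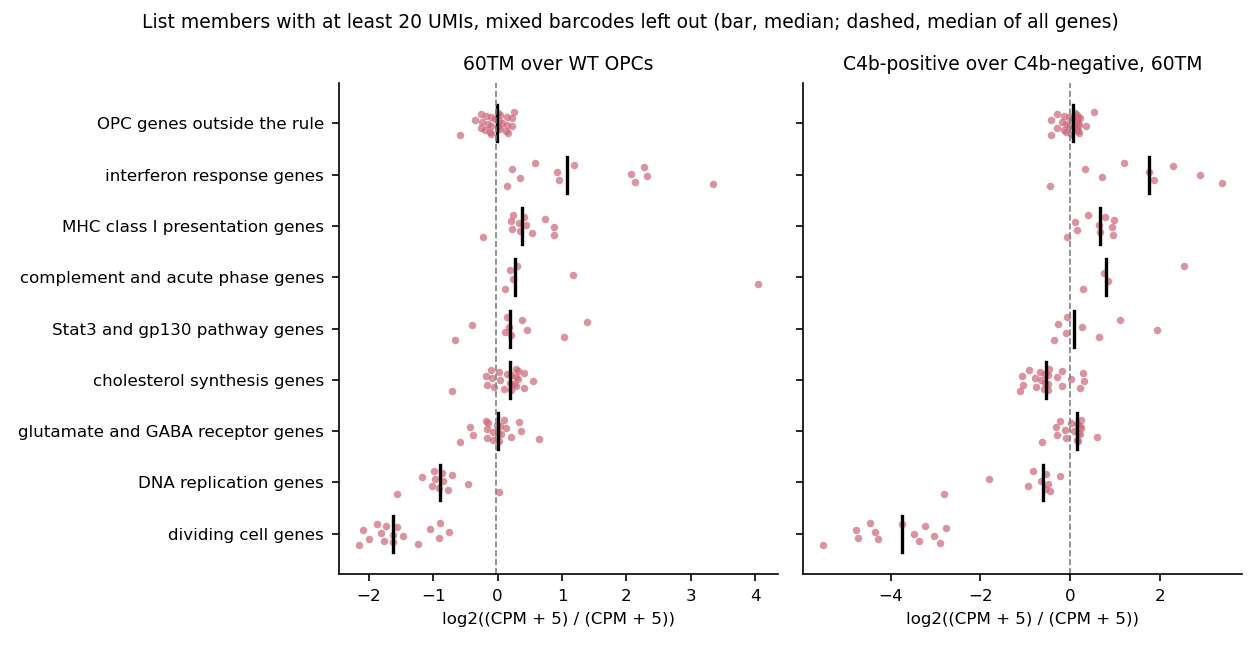
Each point is a listed gene with at least 20 UMIs, placed by its log2 ratio of CPM + 5, left for 60TM over WT OPCs and right for C4b-positive over C4b-negative OPCs of 60TM, without mixed barcodes; black bars are list medians, the dashed line is the median of all genes, and the place of a gene with 0 UMIs in a group depends on the added 5 CPM. Interferon genes lie to the right in both panels (medians 1.08 and 1.75), cholesterol synthesis genes lie to the left only in the C4b panel (median -0.53), and OPC genes stay around 0 in both.

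The C4b comparison was repeated with depth matched and with a stricter call. When each positive barcode was set against the negative barcode nearest in total UMIs (median depth 7372.5), 6 of 8 measured interferon genes were at least 1.5-fold higher (median 1.22), as were 10.9% of all genes. In the same set 9 of 19 cholesterol synthesis genes were lower (median -0.49), as were 10.9% of all genes, and 6 of 9 MHC class I genes were higher (median 0.68). With at least 2 C4b UMIs required, which left 24 positive barcodes, 6 of 8 interferon genes were higher (median 1.97; 11.2% of all genes) and 11 of 22 cholesterol synthesis genes were lower (median -0.59; 16% of all genes). The direction of these 2 lists was the same in the main comparison and in these alternatives. Both alternatives reuse barcodes of the main comparison, so they are not an independent check of it.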

How the data were processed

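The deposited matrices hold raw UMI counts per gene and barcode, which the authors made with Cell Ranger 5.0.0 on GRCm38, per the submitters' processing notes, and did not normalize; the matching deposited tables give gene and barcode names. Whether intronic reads were counted, and the annotation release, are not given in the sources used here. Cells came from papain-dissociated hippocampus and were captured with a 10x 3' kit, at 63967 (WT) and 54044 (60TM) reads per cell, per the labels. The libraries held 63532407 and 80684152 UMIs, with medians of 7053 and 7270 UMIs per barcode. Of 32285 gene identifiers, 32158 matched GENCODE M21 on the same build, which gave the coordinates.

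OPC barcodes were found by the marker rule, and their UMIs were added up within each library and expressed as CPM. Ratios have exact conditional binomial intervals and shares Clopper-Pearson intervals, at 95%. Comparison classes needed at least 4 of 7 class markers. Counts of called genes used at least 50 UMIs and a fold of 2. List members needed 20 UMIs and counted as higher or lower at a CPM ratio of 1.5, while log2 medians used CPM + 5. Both UMI minimums were summed over the 2 groups compared, so a gene can pass through the group where it is high. Doublets were scored with Scrublet in scanpy 1.11.5, taking the top scores up to 0.8% per 1000 barcodes (377 WT and 610 60TM barcodes), and left in except as an alternative. Other tools were Python 3.11.15, numpy 2.4.6, scipy 1.17.1, pandas 2.3.3, matplotlib 3.10.9 and, for the TMM scaling alternative, R 4.3.3 with edgeR 4.0.16. Alternatives were 3 or 5 rule markers, a 5% mitochondrial limit, thinning, other UMI minimums, a mean over cells, leaving out dividing barcodes, and subtracting free RNA (the profile of all barcodes of a library, scaled to the microglial, endothelial and mature oligodendrocyte marker UMIs in OPCs). The ratio and interval code was tested on simulated data.

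The cell rule, the 34 gene lists (548 genes) and the classes were chosen with earlier results of these data known, and mixed barcodes were defined after seeing the data. Genes were named as the 12 highest and 12 lowest by the interval bound nearest to 1 for 60TM over WT (10 and 10 for C4b), leaving out mitochondrial, ribosomal, haemoglobin, sex-linked and predicted genes, plus the rule markers, C4b, Serpina3n, Gfap and 2 to 4 members per list with the most UMIs or the bound farthest from 1. Some further list members were named after their values were seen, to account for a count.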

Additional observations from a re-analysis of the deposited data

How the results depend on the processing

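No paired analysis was possible because each genotype has 1 library. With 1 library per genotype and few OPCs, differences of less than about 2-fold in genes under 50 UMIs were not resolvable, and no alternative gives a check across mice. Leaving out barcodes with 3 or more markers of another class was not run, since it left 10 WT and 18 60TM OPCs, and a gene with under 20 UMIs in an alternative got no value there, nor did Myoc, which had 0 UMIs in C4b-negative barcodes. The mixed-barcode alternatives were chosen after seeing the data. TMM scaling, subtraction of free RNA and the 5% mitochondrial limit kept each count of called genes for 60TM over WT within 1.5 times.

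The count of genes at least 2-fold higher in 60TM OPCs (81) was 361 with at least 3 of 7 markers, 40 without Scrublet barcodes, 176 without dividing barcodes, 28 after thinning, 37 without mixed barcodes, 42 without mixed and dividing barcodes, 251 at a minimum of 20 UMIs and 25 at 100 UMIs. The count of lower genes (87) was 390, 28 without dividing barcodes, 11 after thinning, 21 without mixed and dividing barcodes, 292 at 20 UMIs and 27 at 100 UMIs. For C4b-positive cells, the 208 higher genes became 9 after thinning, 405 with at least 3 and 63 with at least 5 markers, 111 as a mean over cells, 25 without mixed barcodes, 23 without mixed and dividing barcodes, 10 with mixed barcodes out and depth matched, and 26 with mixed barcodes out and at least 2 C4b UMIs. The 99 lower genes became 45 after thinning, 187 at 2 C4b UMIs, 210 and 61 with at least 3 and 5 markers, 52 without dividing barcodes, 62 without mixed, 28 without mixed and dividing, and 20 without mixed and matched in depth. The C4b-positive share of 60TM OPCs (33.1%) was 19.4% at 2 UMIs and 16.1% after thinning.

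Reversals were few. The 60TM ratio of Apod became 0.367 with at least 3 markers, 0.959 without mixed and 0.797 without mixed and dividing barcodes. Gfap became 0.574 without Scrublet barcodes, 0.990 without mixed and 0.759 without mixed and dividing ones. With at least 3 markers Slc7a11 became 0.991 and Ecrg4 8.62, and in the C4b comparison Mki67 1.09, Top2a 1.76 and Hist1h2ap 2.45. List medians that changed sign were NF-kB targets (-0.0012 without mixed, -0.16 without mixed and dividing), astrocyte markers (-0.10 thinned, -0.011 and -0.26) and endothelial markers (-0.21 without Scrublet barcodes) for 60TM over WT, and DNA replication genes (0.34) and neuron markers (-0.40) with at least 3 markers and microglia markers (-0.48) at 2 C4b UMIs. For the 3-marker setting the cause was not tested, although barcodes with exactly 3 markers often lacked Olig1 and Olig2. Of list medians and named gene ratios for 60TM over WT, 389 and 282 values stayed close to the reported one, 23 and 56 moved and 6 and 8 changed sign. For the C4b comparison, 276 and 192 stayed close, 50 and 77 moved and 3 and 3 changed sign.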
